A study of Mus musculus with 6 samples.

Results

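The genes described here mark the glia that arise from the neural crest, together with their Schwann cell precursors. They were chosen by symbol, from 6 names given for this group, and 5 of the names (Sox10, Foxd3, Erbb3, Fabp7 and S100b) matched 1 gene each among the 53801 genes listed per sample. The sixth name, Cdh19-none, matched no mouse symbol and has no value. Cdh19 itself, an adhesion molecule of Schwann cell precursors, is given below among the companion genes of these glia.

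Schwann cell precursors are neural crest cells that follow growing nerves into the tissue, where they give rise to Schwann cells, melanocytes and other derivatives. Sox10 is the transcription factor that keeps crest cells and glia in their lineage, and Foxd3 is a forkhead factor of early crest and its glial descendants. Neuregulin 1 on the axon surface is received by Erbb3, a receptor with little kinase activity of its own that signals through its partner Erbb2. Fabp7 is a brain type fatty acid binding protein of Schwann cell precursors, satellite glia and radial glia, and S100b is a calcium-binding protein that appears later in the Schwann cell lineage. In the face these nerves belong mainly to the trigeminal ganglion, whose maxillary branch grows into the maxillary process.

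Bulk RNA-seq was done on E12.5 maxillary processes, the facial swellings that form the upper jaw and secondary palate, with 3 wild-type (WT) and 3 Wnt1cre; Rosa26Dlx2/- (Dlx2OE) samples, all labelled strain C57BL/6. The Dlx2OE embryos carry a Flag-tagged Dlx2 under the CAG promoter at the Rosa26 locus, behind a stop cassette that Wnt1cre removes in the neural crest lineage, to which the glia described here belong. Cells outside that lineage, such as surface epithelium, are not targeted, and the WT samples carry neither allele by their label. The labels call the 3 samples of a genotype biological replicates of littermates, but do not say how many embryos a sample holds, so p-values measure the spread between these samples.

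Read counts assigned to genes totalled 30332754 to 31308813 in WT and 26155500 to 30570784 in Dlx2OE samples. Levels are given as CPM, the counts of a gene per 1000000 counts of its library after TMM scaling. Levels of different genes are compared per kb of exon. Ratios to Sox10 and summed levels, given below, are not scaled by exon length and are compared between samples. Dlx2, the overexpressed gene, was counted 1255, 1056 and 1409 times in WT and 3521, 4102 and 3336 times in Dlx2OE, a log2 fold change of 1.60 (SE 0.118, adjusted p = 0.00241, edgeR). All gene coordinates are in mm10. Reads outside annotated genes made up 5.03% to 5.75% of reads in the WT samples and Dlx2OE sample 1, 7.81% in Dlx2OE sample 2 and 14.7% in Dlx2OE sample 3. Of 17514 genes tested, 6.45% passed an adjusted p under 0.05 in edgeR, 2.99% higher and 3.46% lower in Dlx2OE. With a log2 fold change past 1 as well, 1.50% were higher and 1.62% lower.

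Promoter windows from RefSeq (GRCm38.p6, 250 bases before to 50 bases after the start) were at hand for 3 of the 5 genes, Foxd3, Fabp7 and S100b. Those of Fabp7 and S100b are shown because these genes had the largest fitted differences between the genotypes, in opposite directions. The Fabp7 window is chr10:57784673-57784972 on the plus strand and the S100b window is chr10:76253586-76253885 on the plus strand. Capitals mark matches to short cores searched on both strands, the SOX cores ACAAAG and ACAAT and the homeodomain core TAATT.
Fabp7: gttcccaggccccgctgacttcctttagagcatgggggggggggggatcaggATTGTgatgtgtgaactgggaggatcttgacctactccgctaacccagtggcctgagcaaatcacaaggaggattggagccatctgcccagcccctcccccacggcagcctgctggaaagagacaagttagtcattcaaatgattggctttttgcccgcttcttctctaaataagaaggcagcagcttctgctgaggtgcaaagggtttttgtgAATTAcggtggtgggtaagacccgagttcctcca
S100b: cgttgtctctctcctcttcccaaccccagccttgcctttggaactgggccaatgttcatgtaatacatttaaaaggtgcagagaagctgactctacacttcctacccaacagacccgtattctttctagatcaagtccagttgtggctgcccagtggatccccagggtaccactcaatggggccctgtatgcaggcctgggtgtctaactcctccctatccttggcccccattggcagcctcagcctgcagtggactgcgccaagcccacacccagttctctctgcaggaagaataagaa

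The Fabp7 window held ACAAT on the reverse strand, its first base at position -198 from the start, and TAATT on the reverse strand, its first base at position 17. The S100b window and the Foxd3 window (chr4:99656049-99656348, plus strand) held none of the 3 cores. Among 32851 promoters of the same length, 18.7% held ACAAAG, 31.0% held ACAAT and 27.0% held TAATT, and such a match is a description of letters, not a binding site. The Foxd3 window had 25 CG dinucleotides, more than 81.6% of promoters. Fabp7 had 6 and S100b had 3, beside a median of 7.

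Of the 5 genes, 4 passed the filter on low counts, and 0 of those 4 passed an adjusted p of 0.05 in edgeR, beside the 6.45% of all genes that did. At an unadjusted p under 0.05 there were 2, Fabp7 and S100b, beside 29.5% of all genes, and with DESeq2 there was 1, S100b, beside 13.4%. With 1 sample left out, edgeR called 0.991%, 0.438% and 11.5% of all genes without WT sample 1, 2 or 3, and 10.7%, 1.18% and 1.76% without Dlx2OE sample 1, 2 or 3. Without the filter on low counts it called 6.09%. The fitted level was higher in Dlx2OE for 2 genes and lower for 2, with a median log2 fold change of 0.07 beside 0.00275 over all genes. The levels of the genotypes did not overlap for 1 gene, S100b, beside 34.1% of all genes tested. The lack of a call does not show equal levels, since the intervals differed greatly in width, from Erbb3 as the narrowest to Fabp7 as the widest. In tissue RNA, fewer glia and less RNA per glial cell cannot be told apart.

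**Figure D1:**
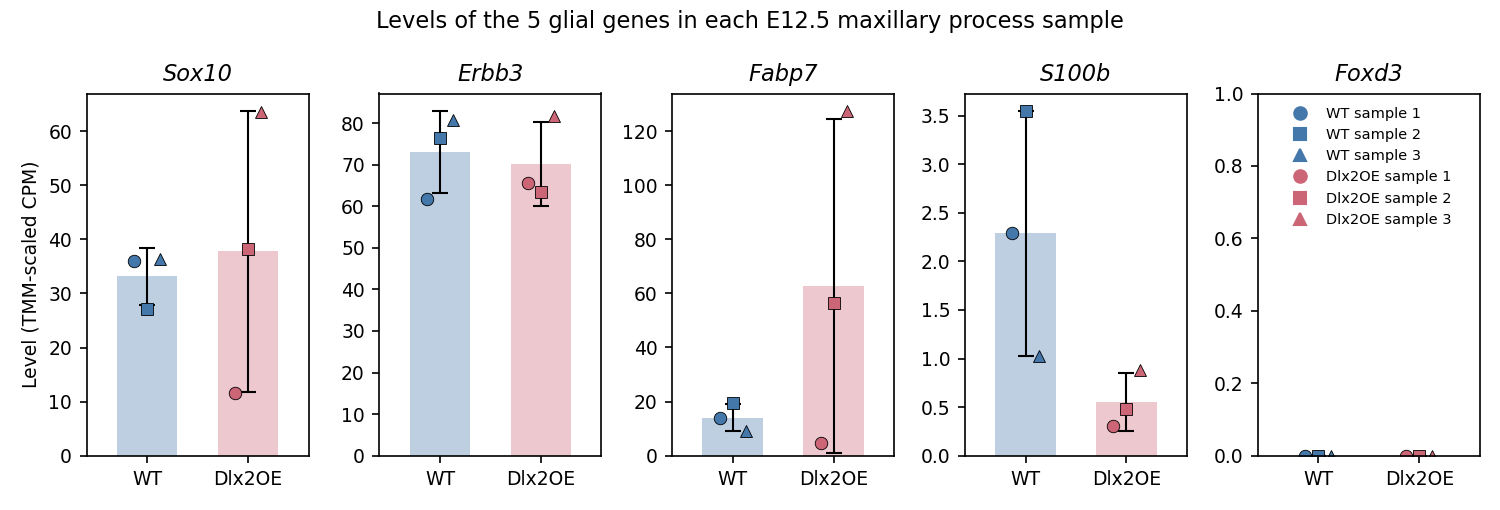
Level of each gene in each sample, in TMM-scaled CPM on a linear axis from 0, with WT in blue and Dlx2OE in red; bars are means and error bars are SD over 3 samples. Sox10 and Fabp7 reached both their lowest and their highest level in Dlx2OE samples, the Erbb3 samples lay close together, S100b did not overlap between genotypes and Foxd3 was at 0 throughout.

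Sox10 (ENSMUSG00000033006, in mm10 at chr15:79154908-79165240, minus strand) was counted 1055, 816 and 1132 times in WT, or 36.0, 27.1 and 36.3 CPM. In the Dlx2OE samples it had 342, 1202 and 1721 counts, or 11.5, 38.3 and 63.5 CPM. The WT samples thus lay between the lowest Dlx2OE sample and the other two, and the genotypes overlapped. The WT mean was 33.1 ± 5.25 CPM and the Dlx2OE mean 37.8 ± 26.0 CPM (± SD, n = 3). The log2 fold change was 0.19 (SE 0.491, 95% interval -0.94 to 1.32, adjusted p = 0.816, edgeR), and the sign depended on single samples. It was 0.61 (adjusted p = 0.108, edgeR) without Dlx2OE sample 1 and -0.41 (adjusted p = 0.606, edgeR) without Dlx2OE sample 3.

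The spread of Sox10 itself differed between the genotypes. The highest WT sample was 1.34 times the lowest, and the highest Dlx2OE sample was 5.50 times the lowest. On the log2 scale the SD of Sox10 was 0.241 in WT, larger than 59.8% of the genes tested, and 1.26 in Dlx2OE, larger than 97.8% of them. This comparison of spreads is a description over 3 samples of each genotype and was not tested.

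Fabp7 (ENSMUSG00000019874, chr10:57784881-57788450, plus strand) had the widest spread of these genes among the Dlx2OE samples. Its WT counts were 407, 582 and 282, or 13.9, 19.3 and 9.04 CPM, and its Dlx2OE counts were 135, 1770 and 3454, or 4.56, 56.4 and 128 CPM. Dlx2OE sample 1 was the lowest of all 6 samples, whereas Dlx2OE samples 2 and 3 lay above every WT sample. The WT mean was 14.1 ± 5.14 CPM and the Dlx2OE mean 62.8 ± 61.7 CPM (± SD, n = 3). The log2 fold change was 2.16 (SE 0.899, 95% interval 0.08 to 4.23), with an unadjusted p = 0.0434 and an adjusted p = 0.157 in edgeR. The exact permutation test, two-sided, gave p = 0.4, where 3 against 3 samples can go no lower than p = 0.1.

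Without Dlx2OE sample 1, the log2 fold change of Fabp7 was 2.695 (adjusted p = 0.00908, edgeR), which passed. Without Dlx2OE sample 3 it was 1.11 (adjusted p = 0.447, edgeR), and without the filter on low counts it was 2.12 (adjusted p = 0.0459, edgeR). The SD of Fabp7 on the log2 scale within Dlx2OE was 2.49, larger than 99.7% of the genes tested, and the highest Dlx2OE sample was 28.0 times the lowest. In WT that ratio was 2.14.

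Erbb3 (ENSMUSG00000018166, chr10:128567523-128589652, minus strand) was the steadiest. The WT samples had 1811, 2307 and 2519 counts, or 61.9, 76.6 and 80.8 CPM, and the Dlx2OE samples had 1942, 1990 and 2216 counts, or 65.5, 63.4 and 81.8 CPM. Every Dlx2OE sample but the third lay inside the WT range, and the third lay just above it. The WT mean was 73.1 ± 9.93 CPM and the Dlx2OE mean 70.2 ± 10.1 CPM (± SD, n = 3). The log2 fold change was -0.06 (SE 0.141, 95% interval -0.38 to 0.27, adjusted p = 0.805, edgeR). It was 0.01 without WT sample 3 and also 0.01 without Dlx2OE sample 2, and 0.0067 with scaling by library size alone. The Dlx2OE sample that was low for Sox10 and Fabp7 was thus not low for Erbb3, whose highest Dlx2OE sample was 1.29 times the lowest.

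S100b (ENSMUSG00000033208, chr10:76253853-76261159, plus strand) was the gene with few counts, 67, 107 and 32 over the WT samples and 9, 15 and 24 over the Dlx2OE samples. These counts gave 2.29, 3.55 and 1.03 CPM in WT and 0.304, 0.478 and 0.886 CPM in Dlx2OE. Every Dlx2OE sample lay below every WT sample, although the gap between the nearest samples, WT sample 3 and Dlx2OE sample 3, was narrow. The WT mean was 2.29 ± 1.26 CPM and the Dlx2OE mean 0.556 ± 0.299 CPM (± SD, n = 3), the WT mean being 4.12 times the Dlx2OE mean. The log2 fold change was -2.04 (SE 0.545, 95% interval -3.30 to -0.79), with an unadjusted p = 0.00564 and an adjusted p = 0.0612 in edgeR, which did not pass. The exact permutation test, two-sided, gave p = 0.1, the smallest it can give.

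The call for S100b depended on the fit. DESeq2 gave a log2 fold change of -2.06 with an adjusted p = 0.00469, and edgeR without the filter on low counts gave -2.07 with an adjusted p = 0.0120. Without WT sample 3, the lowest WT sample, edgeR gave -2.40 with an adjusted p = 0.0310. With any other sample left out, the adjusted p in edgeR stayed above 0.05 and the log2 fold change stayed negative, in a range of -2.53 to -1.58 over all 6 omissions.

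Foxd3 (ENSMUSG00000067261, chr4:99656299-99658622, plus strand, a single exon) was listed at 0 counts in all 6 samples. A count of 0 allows up to 3 counts, or 0.0955 to 0.111 CPM at these depths, a limit that covers counting error only. Of 21967 protein-coding genes, 15.5% were at 0 in every sample. An overlapping miRNA gene, Gm23366, shares 3.83% of the Foxd3 exon. Gm12688, a long noncoding RNA gene on the opposite strand (chr4:99653607-99654983), was detected. Its start is the side nearer Foxd3, with 1315 bases between the 2 genes. It was counted 16, 10 and 10 times in the WT samples and 2, 18 and 17 times in the Dlx2OE samples, a log2 fold change of 0.08 (adjusted p = 0.946, edgeR). Its lowest sample, at 2 counts, was Dlx2OE sample 1, in which Sox10 and 17.6% of all genes tested were also lowest.

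Per kb of exon, the levels in WT were 12.1 ± 1.65 CPM for Erbb3, 11.3 ± 4.11 CPM for Fabp7, 10.9 ± 1.72 CPM for Sox10 and 1.54 ± 0.850 CPM for S100b (SD, n = 3). The first 3 of these differed by less than their spread, and S100b lay below them. In Dlx2OE the levels per kb were 50.3 ± 49.4 CPM for Fabp7, 12.4 ± 8.52 CPM for Sox10, 11.7 ± 1.68 CPM for Erbb3 and 0.375 ± 0.201 CPM for S100b. There, too, the first 3 overlapped within their SDs. Foxd3 lay below 0.0477 CPM per kb in every sample of either genotype.

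The companion list held 25 other genes of Schwann cell precursors and early peripheral glia, among them genes of adhesion, myelin proteins, receptors and glial factors. Of the 24 tested, 1 rose and 1 fell with an adjusted p under 0.05 in edgeR, beside 2.99% and 3.46% of all genes. The median log2 fold change was 0.14, with 13 genes higher and 11 lower in fitted level. The levels of the genotypes did not overlap for 5 of the 24, beside 34.1% of all genes. Egr2, the myelination factor, had 0 to 7 counts per sample and was not tested.

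Pou3f1, a POU factor of Schwann cells that come to myelinate, was the gene that rose. Its levels were 0.615, 0.564 and 0.738 CPM in WT and 8.51, 3.22 and 4.69 CPM in Dlx2OE, at a log2 fold change of 3.09 (SE 0.404, adjusted p = 0.0116, edgeR). Unlike Sox10, it was highest in Dlx2OE sample 1. Another gene, Gm2164, overlaps 8.57% of its exon, and the strand setting of the counting is not stated. Pou3f1 is also a factor of other cell types, including epidermal and neural cells.

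Pmp22, a membrane protein of myelin that is also present outside glia, was the gene that fell. Its levels were 59.7, 58.5 and 47.8 CPM in WT and 29.2, 27.6 and 29.1 CPM in Dlx2OE. The log2 fold change was -0.95 (SE 0.114, adjusted p = 0.00929, edgeR), and the 3 Dlx2OE samples differed little, again unlike Sox10.

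Cdh19 (ENSMUSG00000047216, chr1:110888326-110977584, minus strand) was counted 549, 204 and 304 times in WT and 83, 369 and 346 times in Dlx2OE. The genotypes overlapped, and the log2 fold change was -0.37 (adjusted p = 0.683, edgeR). Ednrb, an endothelin receptor of crest cells and early glia, had 80.7, 52.4 and 58.7 CPM in WT and 20.2, 69.5 and 94.4 CPM in Dlx2OE. Its log2 fold change was -0.06 (adjusted p = 0.942, edgeR). In both, as in Sox10 and Fabp7, Dlx2OE sample 1 was the lowest of the 6 samples.

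The number of companions that passed moved with single samples. Without Dlx2OE sample 1 there were 7, beside 10.7% of all genes in that fit, among them Pou3f1 (2.61 on the log2 scale), L1cam (1.54), Ttyh1 (1.25), Gap43 (0.99) and Gfra3 (0.93) higher and Pmp22 (-0.97) lower. Without WT sample 1 there was 1, and without WT sample 2 there were 0, by edgeR at an adjusted p under 0.05. With all 6 samples, 5 companions had an unadjusted p under 0.05 in edgeR, beside 29.5% of all genes. DESeq2 called 4, Pou3f1, Pmp22, Gap43 and Cnp, beside 13.4% of all genes.

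**Figure D2:**
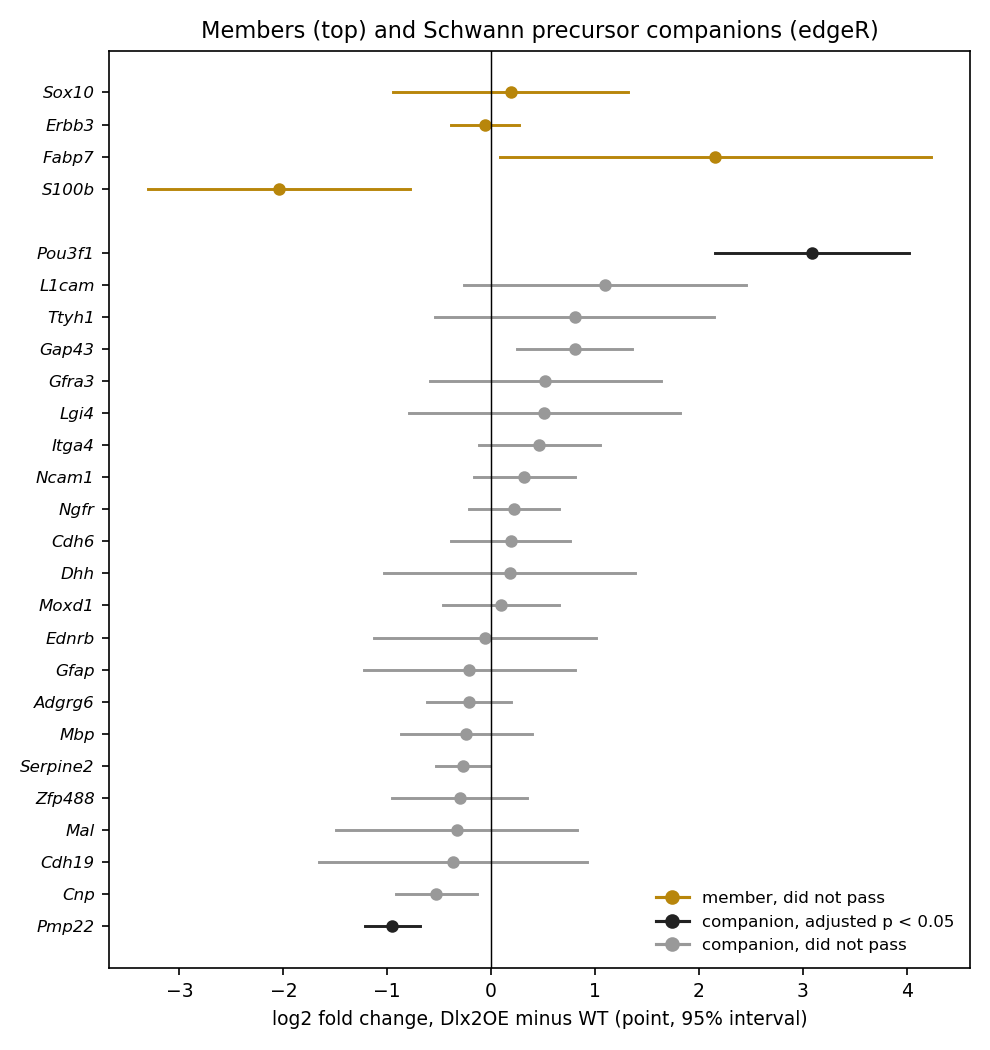
Log2 fold change (Dlx2OE minus WT, edgeR) with its 95% interval for the 4 members tested and 22 of the companion genes tested; black marks an adjusted p under 0.05. Pou3f1 at 3.09 and Pmp22 at -0.95 are the genes that passed, and the members run from -2.04 for S100b to 2.16 for Fabp7.

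The Dlx2OE samples varied in a shared order for many of these genes. This pattern was seen after the values had been looked at and is described here without a test. The share of reads outside annotated genes rose in the same order, at 5.75%, 7.81% and 14.7% in Dlx2OE samples 1, 2 and 3. Its part in the pattern was not tested. Sox10 and Fabp7 did not share an order in WT, where sample 2 was lowest for Sox10 and highest for Fabp7. Of the 24 companions tested, 13 (54.2%) were lowest of the 6 samples in Dlx2OE sample 1, beside 17.6% of all genes tested. As many, 13 (54.2%), were highest in Dlx2OE sample 3, beside 21.2% of all genes. Both held for Sox10 and Fabp7 and for 10 companions (41.7%), beside 4.12% of all genes. Among these 10 were Ngfr, Moxd1, Ednrb, Dhh, Gfra3, Ttyh1, L1cam and Lgi4. S100b was also lowest in Dlx2OE sample 1 and Erbb3 highest in Dlx2OE sample 3.

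Likeness to Sox10 was measured as the Pearson r of log2 CPM minus the mean of the genotype, over the 6 samples. All genes share these 6 libraries, and the weight of a sample in an r depends on the deviations of both genes. Sox10 itself deviated most in Dlx2OE sample 1, where it lay 1.39 below its genotype mean on the log2 scale. Among the members, r with Sox10 was 0.924 for Fabp7, 0.455 for S100b and 0.401 for Erbb3. Among the companions it ran from -0.983 for Serpine2 to 0.986 for Lgi4. It was 0.976 for Ednrb, 0.956 for Gfra3 and 0.888 for Cdh19, but -0.700 for Pou3f1 and -0.146 for Pmp22. It was above 0.8 for 13 of the 24 companions and for 10.1% of all genes. Lgi4 shares 44.9% of its exon sequence with Fxyd3, so that its counts are uncertain.

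The genes most like Sox10 by this measure were Tmem132e (0.998), Fam171b (0.998), Nr2f2 (0.998), Slc16a7 (0.996) and Gfra1 (0.996). Nr2f2, a nuclear receptor, stood at 89.7 ± 7.05 CPM (WT) and 107 ± 31.5 CPM (Dlx2OE; ± SD, n = 3). Gfra1, a receptor subunit for glial cell line-derived neurotrophic factor, stood at 26.6 ± 2.30 CPM in WT and 24.1 ± 15.0 CPM in Dlx2OE. The shape of the variation was alike, but its size was not. Dlx2OE sample 1 lay 1.35 below its genotype mean on the log2 scale for Tmem132e and 0.511 below it for Nr2f2.

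**Figure D3:**
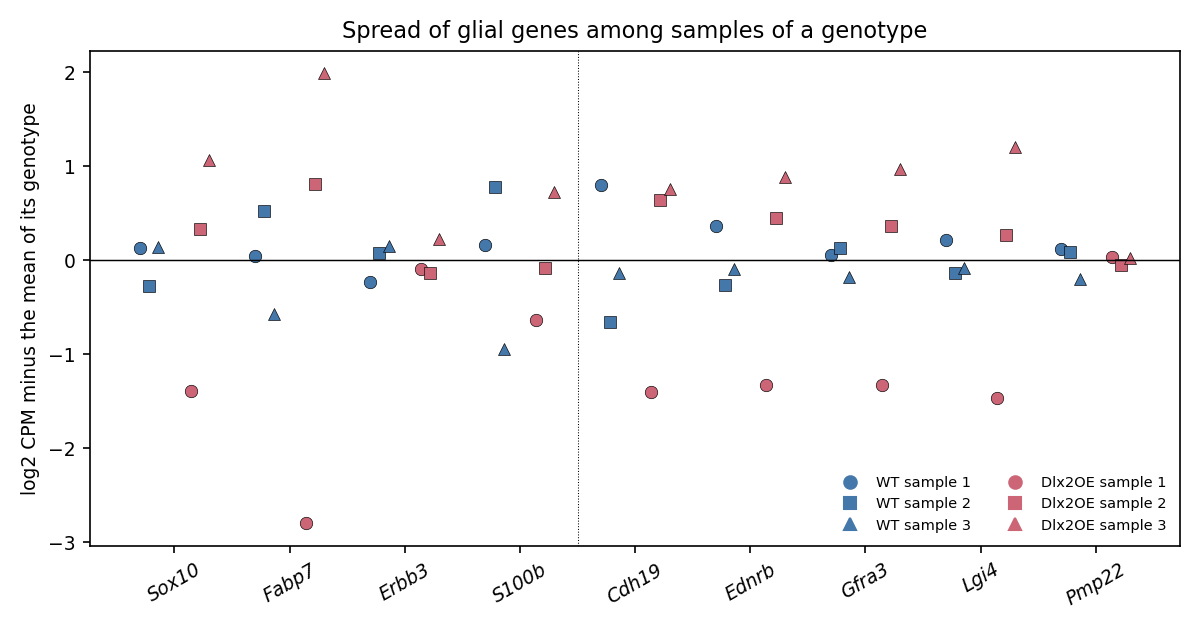
Log2 CPM of each sample minus the mean of its genotype for the members (left of the dotted line) and 5 companion genes, with 1 symbol for each sample. Dlx2OE sample 1 lies lowest for Sox10 and Fabp7 and for every companion shown but Pmp22, and Dlx2OE sample 3 lies highest for Sox10 and Fabp7, whereas Erbb3 and Pmp22 stay near 0.

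Counts of a gene per 100 counts of Sox10 in the same sample set the glial genes against Sox10, a measure chosen after the values were seen. These ratios are not scaled by exon length, so each is compared between samples and not between genes. Of 27 such ratios, 3 did not overlap between the genotypes, and the share of all genes with such a ratio was not computed. The smallest p after adjustment over all 27 was 0.771 (exact permutation tests, two-sided). With 3 against 3 samples the unadjusted p can go no lower than 0.1, so no ratio could pass. Among the 3, the ratio for S100b was 2.83 to 13.1 in WT and 1.25 to 2.63 in Dlx2OE, and for Pou3f1 it was 1.71 to 2.08 in WT and 7.38 to 73.7 in Dlx2OE. In these samples the ratio was lower in Dlx2OE for S100b, by a narrow gap, and higher for Pou3f1.

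Other ratios overlapped. Fabp7 had 38.6, 71.3 and 24.9 counts per 100 of Sox10 in the WT samples and 39.5, 147 and 201 in the Dlx2OE samples (p = 0.2, exact permutation test). Dlx2OE sample 1 thus lay inside the WT range for this ratio, while Dlx2OE samples 2 and 3 lay above it. Ednrb had 162 to 224 in WT and 149 to 182 in Dlx2OE, and Cdh19 25.0 to 52.0 and 20.1 to 30.7. Erbb3 had 172, 283 and 223 in WT and 568, 166 and 129 in Dlx2OE, so it did not follow Sox10 from sample to sample.

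**Figure D4:**
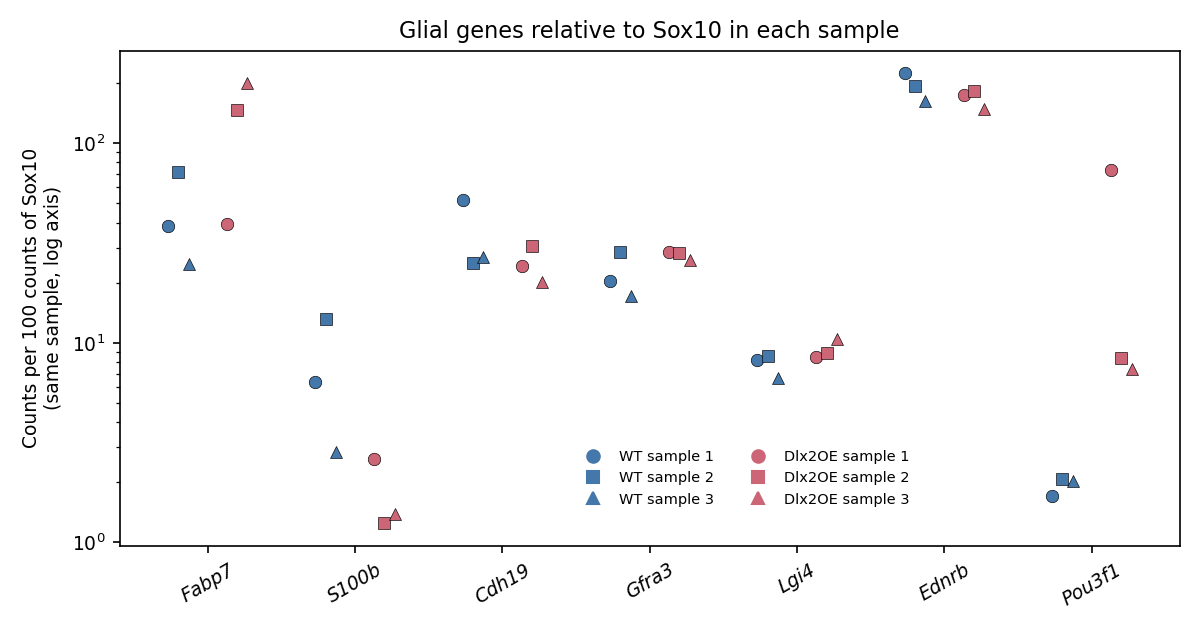
Counts per 100 counts of Sox10 in the same sample, on a log axis, for 2 members and 5 companion genes, with WT in blue and Dlx2OE in red. The Dlx2OE samples lie below WT for S100b, at 1.25 to 2.63, and Fabp7 spreads from 39.5 to 201 in Dlx2OE.

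Around Erbb3, 13 ligands, receptors, proteases and inhibitors of the neuregulin pathway were tested, and 0 passed in edgeR, beside 6.45% of all genes. At an unadjusted p under 0.05 there were 2, beside 29.5%, and DESeq2 called 1 (Adam19), beside 13.4%. Their median log2 fold change was 0.04. Nrg1, the axonal ligand, was at 8.14 ± 1.73 CPM (WT) and 11.9 ± 7.04 CPM (Dlx2OE; ± SD, n = 3), with a log2 fold change of 0.54 (adjusted p = 0.439, edgeR). Erbb2, the signalling partner, was at 104 ± 14.0 CPM in WT and 99.5 ± 16.7 CPM in Dlx2OE, at a log2 fold change of -0.07 (adjusted p = 0.793, edgeR). Without Dlx2OE sample 1, edgeR called 3, beside 10.7% of all genes, namely Nrg1 (0.92) and the protease Adam19 (0.79) higher and Egfr (-0.51) lower. Per kb of exon, Erbb2 stood at 20.0 CPM and Erbb3 at 12.1 CPM in WT, and Nrg1 at 0.786 CPM.

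Among 18 transcription factors of the neural crest and its derivatives, 4 rose and 2 fell in edgeR, beside 2.99% and 3.46% of all genes, with a median log2 fold change of 0.09. Those that rose were Tfap2a (1.48, adjusted p = 0.0207), Tfap2b (1.58, adjusted p = 0.0464), Zeb2 (0.68, adjusted p = 0.0257) and Twist1 (0.65, adjusted p = 0.0402), all factors active in crest or its mesenchyme. Tfap2a (50.5 CPM) and Tfap2b (214 CPM) were highest in Dlx2OE sample 1, where the summed epithelial markers given below were also highest. The part of epithelium in their levels was not tested. The close relatives of Sox10 were not called. Sox8 was at 9.57 ± 2.47 CPM in WT and 10.01 ± 1.31 CPM in Dlx2OE (adjusted p = 0.865, edgeR), and Sox9, which also serves cartilage, at 83.4 ± 20.2 CPM and 54.1 ± 17.4 CPM (adjusted p = 0.139, edgeR). The count of 6 ranged from 0, without WT sample 2, to 7, without WT sample 3, and it was 1 without WT sample 1, 2 without Dlx2OE sample 2 and 3 without Dlx2OE sample 3.

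The paralogs of Foxd3, Fabp7 and S100b numbered 22, of which 14 passed the filter on low counts and were tested. All 14 had a lower fitted level in Dlx2OE, with a median log2 fold change of -0.85 beside 0.00275 over all genes. In edgeR 1 passed, S100a16 (32.6 ± 7.04 CPM in WT, 18.5 ± 1.27 CPM in Dlx2OE, log2 fold change -0.82, adjusted p = 0.0348), beside 3.46% of all genes. DESeq2 called 6 of them, beside 13.4% of all genes. In edgeR 4 passed without Dlx2OE sample 1, beside 10.7% of all genes, 3 without WT sample 3, beside 11.5%, and 0 without any 1 of the other samples. Foxd2 was at 20.8 CPM in WT and 8.27 CPM in Dlx2OE (log2 fold change -1.33, adjusted p = 0.0933, edgeR). Fabp5, a more widely expressed member of the Fabp7 family, was at -0.22 on the log2 scale (adjusted p = 0.450, edgeR), unlike the 2.16 of Fabp7. Fabp1, Fabp9, Fabp12 and S100a4 were at 0 counts in every sample.

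Several members are also made outside glia, so marker lists of the other cell types that a dissected maxillary process can hold were read beside them. The neuronal markers had a summed level of 84.5, 359 and 192 CPM in WT and 203, 738 and 1664 CPM in Dlx2OE. Like Fabp7 and Sox10, they were highest in Dlx2OE samples 2 and 3. In WT their sum was highest in sample 2, where Sox10 was lowest and Fabp7 highest, and the sum of Dlx2OE sample 1 lay above those of WT samples 1 and 3. All 12 neuronal markers had a higher fitted level in Dlx2OE (median log2 fold change 2.17, beside 0.00275 over all genes). In edgeR 0 passed, beside 6.45% of all genes. At an unadjusted p under 0.05 there were 5, beside 29.5%, and DESeq2 called 1 (Pou4f1), beside 13.4%. Without Dlx2OE sample 1, 7 passed in edgeR, beside 10.7% of all genes in that fit.

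Pou4f1, a factor of sensory neurons of the trigeminal ganglion, had 21, 70 and 19 counts in WT and 10, 633 and 1642 counts in Dlx2OE. Nefm, a neurofilament subunit, had 366, 1177 and 620 counts in WT and 386, 5644 and 14304 counts in Dlx2OE, and 19.2% of its exon sequence is shared with Nefl. Over the 6 samples, within genotypes, r with Pou4f1 was 0.992 for Fabp7 and 0.899 for Sox10. Over all 12 neuronal markers, r with Sox10 was above 0.8 for 5, beside 10.1% of all genes. It ran from 0.148 (Neurog1) to 0.916 (Isl1), with 0.204 for Neurod1 and 0.236 for Stmn2. With Fabp7, for which the share over all genes was not computed, r was above 0.8 for 7 and ran from 0.303 (Neurog1) to 0.992 (Pou4f1). Fabp7 was thus highest in the samples richest in neuronal transcripts, and the part of ganglion or nerve tissue in its level was not tested.

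The remaining lists were read for the same reason. Markers of brain and retina progenitors, which also hold Fabp7, summed to 227 to 261 CPM in WT and 139 to 174 CPM in Dlx2OE. In edgeR 1 of 11 rose (Emx2, 1.61) and 2 fell (Sox2, -1.67, and Slc1a3, -0.99), beside 2.99% and 3.46% of all genes, and Hes5, a defining marker, had 2 to 9 counts per sample. Retina and lens markers summed to 31.8 to 99.6 CPM in WT and 19.5 to 47.7 CPM in Dlx2OE, with 1 of 5 lower (Prox1, -1.09) beside 3.46% of all genes. Cryga was at 0 counts in every sample, and Cryaa and Rax had at most 2. In Dlx2OE samples 2 and 3, where Fabp7 was highest, both sums lay below every WT sample. Single markers of retina and lens did not all follow, with Cryba1 high in both of these samples and Six6 in Dlx2OE sample 2 alone. Cryba1, a lens crystallin, was counted 0, 8 and 0 times over the WT samples, then 0, 35 and 70 times over the Dlx2OE samples, and was not tested. Six6, a factor of the eye field, stood at 0.513, 0.630 and 0.192 CPM over the WT samples, then at 0, 3.22 and 0.258 CPM over the Dlx2OE samples (log2 fold change 1.39, adjusted p = 0.478, edgeR). The part of brain, retina or lens tissue in the Fabp7 level was not tested.

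For S100b, which chondrocytes also make, the cartilage markers summed to 693, 648 and 859 CPM in WT and 281, 480 and 646 CPM in Dlx2OE. All 8 tested had a lower fitted level in Dlx2OE, at a median log2 fold change of -1.14 beside 0.00275 over all genes. In edgeR 2 fell (Col9a2, -1.24, and Col9a3, -1.37), beside 3.46% of all genes. Both S100b and this sum were lowest in Dlx2OE sample 1 and, among Dlx2OE samples, highest in sample 3. In WT the sum was highest in sample 3, where S100b was lowest. Within genotypes, r of S100b was 0.141 with Col2a1 and 0.0238 with Col9a3, and it was not computed for the other cartilage markers. The part of cartilage in the S100b level was not tested.

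Markers of epithelium, which also makes Erbb3, summed to 774, 1405 and 1048 CPM in WT and 1892, 600 and 617 CPM in Dlx2OE. In edgeR 3 of 11 fell (Krt8, -2.11, Krt18, -1.85, and Cldn7, -1.54), beside 3.46% of all genes, and 4 had a higher fitted level. Krt5, a keratin of basal epithelium, was one of the 4, with 42.7, 91.7 and 79.5 CPM in WT and 538, 121 and 147 CPM in Dlx2OE. The genotypes did not overlap for Krt5, but at a log2 fold change of 1.91 it missed the threshold (adjusted p = 0.0792, edgeR). In Dlx2OE sample 1, Krt14 was at 490 CPM and Krt15 at 168 CPM, also their highest levels. The high sum of Dlx2OE sample 1 came with no high Erbb3 level, and the part of epithelium in the Erbb3 level was not tested.

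Melanoblast markers, from the other Sox10-positive crest lineage, summed to 33.9 to 40.2 CPM in WT and 40.3 to 50.3 CPM in Dlx2OE. All 7 tested had a higher fitted level in Dlx2OE, at a median log2 fold change of 1.83 beside 0.00275 over all genes. In edgeR 2 rose (Dct, 2.18, and Pmel, 2.04), beside 2.99% of all genes. Most of the summed level came from Kit, at a mean log2 CPM of 5.03 over the 6 samples, beside 0.458 for Dct and 0.740 for Pmel. Unlike Sox10, the summed level of this list in Dlx2OE sample 1 was above every WT sample. Markers of maxillary mesenchyme, the labelled tissue, were present in every sample at a summed 1778 to 2138 CPM in WT and 2123 to 2661 CPM in Dlx2OE, with 2 of 11 higher in edgeR (Twist1, 0.65, and Twist2, 1.69) beside 2.99% of all genes.

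**Figure D5:**
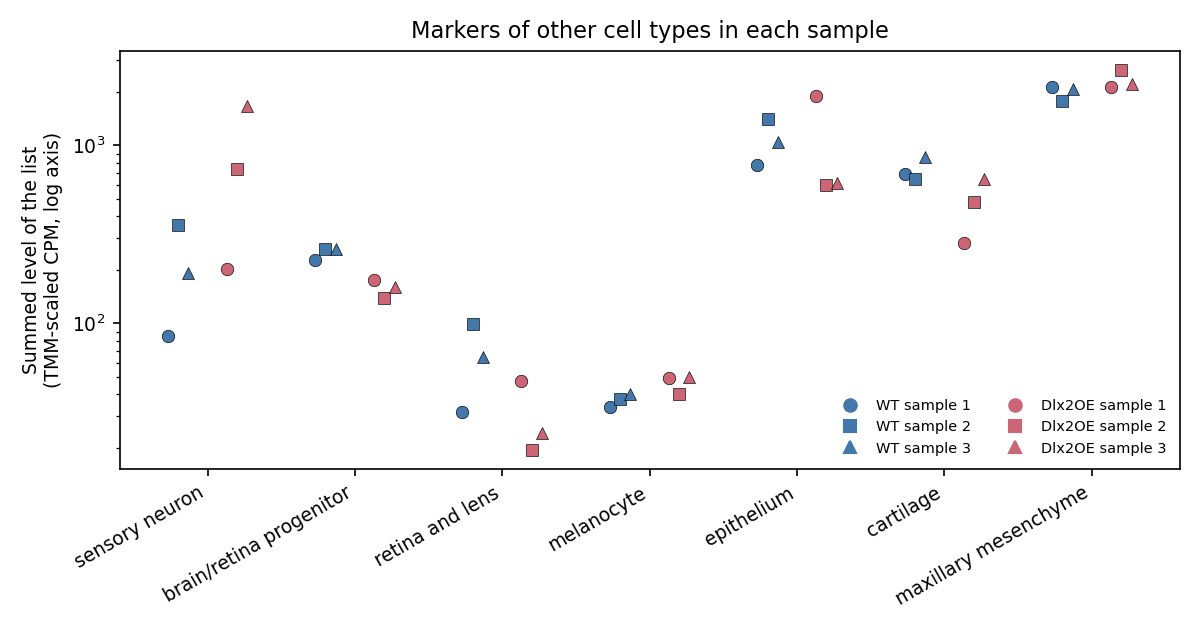
Summed level of each marker list in each sample, in TMM-scaled CPM on a log axis, with WT in blue and Dlx2OE in red. Neuronal markers reach 738 and 1664 CPM in Dlx2OE samples 2 and 3, the samples in which Fabp7 is highest, and epithelial markers reach 1892 CPM in Dlx2OE sample 1.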

How the data were processed

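Bulk RNA-seq of E12.5 maxillary processes (3 WT and 3 Dlx2OE samples, grouped by their titles) was analysed from 1 table of raw counts per gene for each sample. Per the submitters' processing notes and the study's methods, the authors checked reads with FastQC, mapped them to mm10 with STAR 2.7.3a and made the deposited counts with HTSeq 0.12.4 in union mode. The annotation release and strand setting are not given in the sources used here. In union mode reads over 2 genes are left out, which lowers genes with overlaps. The 5 summary lines of each table stayed out of totals and tests. They include reads outside genes (5.03% to 14.7%) and ambiguous reads (5.97% to 6.90%). Columns of other samples numbered 0.

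Gene symbols, coordinates and exon lengths were taken from GENCODE M21 (mm10), which holds 53706 of the 53801 listed IDs. Counts were kept by filterByExpr (minimum count 10), scaled by TMM and tested by genotype alone with edgeR's quasi-likelihood test (edgeR 4.0.16, limma 3.58.1, R 4.3.3), Benjamini-Hochberg adjusted over all 17514 genes kept. The threshold was an adjusted p of 0.05, with a log2 fold change past 1 given where stated. The study's methods use DESeq2, which was run as an alternative (version 1.42.0), as were RLE factors, library size alone, no filter, at least 10 counts in every sample, omission of mitochondrial and haemoglobin genes (49), a replicate block and omission of each sample. The fits were tested on simulated data. Log2 CPM used a prior count of 2. Totals of 26155500 to 31308813 counts per sample set a limit of 0.0955 to 0.111 CPM for a count of 0 (3 counts), covering counting error only. Figures were drawn with Python 3.11.15 and matplotlib 3.10.9.

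The members and gene lists were chosen with earlier results of these data known. Named are every member, the genes of each list past an adjusted p of 0.05 (at most 8 per list by smallest p), genes with a described role beside a member (Erbb2, Nrg1, Sox8, Sox9, Cdh19), Dlx2, and the 5 genes with the highest r with Sox10 among those with a mean log2 CPM of at least 1. A few genes that this rule names are not reported here. Other genes named were chosen after their values were seen.

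Samples of the same number in both genotypes did not deviate together (r of their deviations from the group means was -0.0718, -0.211 and 0.0731), so the numbers were not taken as pairs.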

Additional observations from a re-analysis of the deposited data

How the results depend on the processing

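Sox10 and Erbb3 had no stable sign. Sox10 was at -0.064 on the log2 scale with the replicate block, and over omissions of 1 sample it ran from -0.41 to 0.61, negative without Dlx2OE sample 3. Erbb3 was at 0.0067 with library size alone and ran from -0.18 to 0.01, positive without WT sample 3 (0.0105) and without Dlx2OE sample 2 (0.0114). Fabp7 (1.11 to 2.695) and S100b (-2.53 to -1.58) kept their signs over these omissions and all other settings run. Fabp7 passed without the filter (2.12), and S100b passed with DESeq2 (-2.06) and without the filter (-2.07). S100b has no value under at least 10 counts in every sample, since Dlx2OE sample 1 has 9. With the replicate block Fabp7 was at 1.38 (adjusted p = 0.4199, edgeR) and S100b at -1.995 (adjusted p = 0.114, edgeR). The numbers do not pair the samples, and no member's call depended on that block.

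Counts of genes called moved with the test and the filter. DESeq2 called 1 member, 4 companions, 1 neuregulin gene, 6 paralogs, 1 neuronal, 2 retina and lens, 4 melanoblast, 4 cartilage and 6 mesenchyme markers, and 2459 of all genes beside 1130 in edgeR. Without the filter edgeR called 2 members, 4 companions, 6 paralogs, 5 neuronal, 2 retina and lens, 4 melanoblast, 6 epithelial, 5 cartilage and 4 mesenchyme genes, and 2044 of all genes. With the replicate block it called 2 paralogs, 2 neuronal, 0 retina and lens and 1 melanoblast gene, and with library size alone 0 retina and lens genes. Over omissions of 1 sample the calls ran from 0 to 1 for members, 0 to 7 for companions, crest factors and neuronal markers, 0 to 3 for the neuregulin, retina and lens, and cartilage lists, 0 to 4 for paralogs, 1 to 6 for brain and retina progenitors, 0 to 2 for melanoblast and mesenchyme markers, 1 to 7 for epithelium and 79 to 2091 for all genes. The highest of these counts came without Dlx2OE sample 1 for companions, the neuregulin list, paralogs, neuronal, brain and retina progenitor, retina and lens, epithelial and cartilage markers, and without WT sample 3 for crest factors and all genes, where the lowest came without WT sample 2. The cause was not tested.

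Depth limits S100b, with 9 to 107 counts per sample, and Foxd3, with none. With 3 samples of each genotype, and 1 Dlx2OE sample apart from the others for Sox10 and Fabp7, differences inside the intervals given above could not be seen.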
